A study of Mus musculus with 15 samples.

Results

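The interferon-stimulated genes described here are 51 genes that were taken from a list of names. All 51 were found in the deposited count table of 37991 genes, and all 51 had enough reads to be among the 14258 genes tested. The data were RNA-seq counts from whole liver of 15 female C57BL/6 mice, 1 library per mouse, in 3 groups of 5. Young WT mice were 90 days old and old WT mice 600 days old, and both carried intact S6K1. Old KO mice were 600 days old, came from the same heterozygous breeding, and were constitutive knockouts of S6K1 (gene Rps6kb1), the ribosomal S6 kinase that acts below mTOR. There was no young KO group, so age was compared in WT mice and genotype at 600 days. The age and genotype comparisons share the old WT libraries, so an old WT library that is high or low moves both, in opposite directions.

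Interferons are cytokines that cells release on sensing viral or misplaced nucleic acid. Type I and type III interferons act through JAK1 and TYK2 to assemble a complex that includes STAT2 and IRF9 and binds the interferon-stimulated response element (ISRE), whereas interferon-gamma acts through JAK1 and JAK2 on genes with a gamma-activated site (GAS). In liver, hepatocytes, Kupffer cells, endothelial cells and lymphocytes all respond, and the induced genes encode proteins that degrade viral RNA, block translation, modify proteins with ISG15 and attack the vacuoles of intracellular microbes.

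The 2 response elements were searched for in promoter windows, because they are the sequence feature by which these genes are known. RefSeq windows on GRCm38.p6, with 250 bases before and 50 after the annotated start, were available for 41 of the 51 members. The windows were not those of Oas2, Mx1, Mx2, Usp18, Dhx58, Iigp1, Gbp6, Parp9, Parp14 and Ifi27. The ISRE letters (GAAA, any 2 bases, then GAAA, on either strand) were in a window of 20 of 41 members (48.8%), against 3.99% of 27025 genes with a window. The GAS letters (TTCNNNGAA, which read the same on both strands) were in 12 of 41 members (29.3%), against 9.55% of genes. Both were in 1 window of 6 members (14.6%), against 0.54% of genes, and the 2 matches overlapped in 1 member. By role, the ISRE letters were in all 3 guanylate-binding protein genes with a window, in 3 of 4 immunity-related GTPase genes and in 4 of 6 oligoadenylate synthetase genes, and in 0 of 4 genes of the mixed group that holds Ifi44 and Lgals3bp. A match describes the letters of a window and is not evidence of binding.

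The promoters below belong to members on which the comparisons turn or that stand for a role, and each is read in the direction of its gene, 5′ to 3′, on GRCm38.p6, ending before the first transcribed base. Capitals mark ISRE letters on either strand, except for Irf1, which has no ISRE letters in its windows and whose capitals mark GAS letters. Positions are chr5:120777675-120777784 (minus strand) for Oas3, chr5:120907526-120907595 (minus) for Oas1a, chr5:120887614-120887681 (minus) for Oas1g, chr12:26456513-26456622 (minus) for Rsad2, chr4:156200837-156200946 (minus) for Isg15, chr3:142559949-142560043 (plus) for Gbp3, chr11:58199472-58199555 (plus) for Igtp and chr11:53769874-53769983 (plus) for Irf1.
Oas3: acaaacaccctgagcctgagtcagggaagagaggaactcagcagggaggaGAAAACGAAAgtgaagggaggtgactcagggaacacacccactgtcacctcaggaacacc
Oas1a: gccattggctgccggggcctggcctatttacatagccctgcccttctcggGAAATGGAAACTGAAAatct
Oas1g: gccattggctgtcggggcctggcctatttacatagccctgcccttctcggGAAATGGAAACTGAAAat
Rsad2: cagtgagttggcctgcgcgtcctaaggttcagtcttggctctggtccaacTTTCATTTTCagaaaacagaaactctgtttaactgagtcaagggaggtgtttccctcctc
Isg15: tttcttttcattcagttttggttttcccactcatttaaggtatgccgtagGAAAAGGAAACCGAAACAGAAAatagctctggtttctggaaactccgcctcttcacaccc
Gbp3: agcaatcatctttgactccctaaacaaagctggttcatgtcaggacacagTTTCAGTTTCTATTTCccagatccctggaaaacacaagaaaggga
Igtp: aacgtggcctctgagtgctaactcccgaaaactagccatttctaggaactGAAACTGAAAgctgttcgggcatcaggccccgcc
Irf1: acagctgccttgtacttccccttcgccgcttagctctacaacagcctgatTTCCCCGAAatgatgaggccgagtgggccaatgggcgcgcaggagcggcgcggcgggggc
Isg15 had 3 overlapping matches, the first of which began 78 bases before the start, and Oas3 had 1 that began 75 bases before it. The promoters of the neighbours Oas1a and Oas1g differed at 1 of the 68 bases compared and carried the same pair of matches.

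Total counts were 21801754 to 38065359 per library, and the 30 pairs of libraries within groups differed beyond sampling noise (chi-square per degree of freedom 19.7 to 128). Levels are given as CPM, read counts relative to the TMM-scaled library size, and fold changes as log2 with their standard error (SE). A gene was called when its adjusted p-value, from edgeR's quasi-likelihood test with Benjamini-Hochberg adjustment over all 14258 genes, was under 0.05. Rps6kb1 itself was at 38.4 ± 4.21 CPM (SD, n = 5) in old WT and 17 ± 2.23 CPM (SD, n = 5) in old KO livers, and the log2 difference was -1.17 (SE 0.0979, adjusted p = 8.54e-06 by edgeR). In whole liver, fewer cells of a type and less RNA per cell cannot be told apart.

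Per kilobase of exon, the members spanned 387-fold in old WT livers. Iigp1, an immunity-related GTPase, was highest at 128 ± 32.2 CPM per kb (SD, n = 5), followed by Bst2, the virion tether tetherin, at 96.1 ± 11.6 (SD, n = 5). Oas3 was lowest at 0.331 ± 0.0742 CPM per kb (SD, n = 5), just under Oas1g at 0.394 ± 0.122 (SD, n = 5). Neighbours in this order mostly overlapped between animals: in 3 of 50 neighbouring pairs all 5 old WT livers of the higher gene lay above all 5 of the lower gene, namely Bst2 over Ifi27, Ddx58 over Trim21, and Mx1 over Oas1g.

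With age, more members lay above than below zero, but the share that passed the test was close to that of all genes. Between old WT and young WT livers, 42 of 51 log2 fold changes were above 0 and the median was 0.31, against 0.01 over all genes tested. Higher in old WT were 7 members (13.7%), Oas1a, Oasl2, Cmpk2, Ube2l6, Irf1, Ifi27 and Ifi44, beside 9.92% of all genes tested. Lower were 0 members by edgeR, beside 8.91% of all genes, and also 0 at an unadjusted p under 0.05, beside 15.8% of all genes, and 0 by DESeq2 and by limma voom. For 0 members did the 5 old WT livers all lie above or all below the 5 young WT livers, where 5.78% of all genes did so upward and 5.67% downward. The count of 7 depended on single livers. It was 16 without young WT 6, when 12.1% of all genes were called higher, and 11 without old WT 7. It was 4 without young WT 3, and 3 when young WT 4, old WT 4 or old WT 10 was dropped. It was 2 without young WT 1 or old WT 1, and 1 without young WT 2 or old WT 5. In the fits with 1 to 4 members called, 6.25% to 8.82% of all genes were called higher. Without old WT 7, 10.3% of all genes were. Without 1 old KO liver, which only shares the estimate of spread, the count of members was 6 to 9. Of all genes, 9.04% to 10.3% were then called higher.

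Between genotypes at 600 days, nearly all members lay lower in old KO livers, by amounts that mostly missed the test for single genes. Of the 51 log2 fold changes, 45 were below 0 and 6 above, with a median of -0.32, against 0.00 over all genes, of which 49.8% were below 0. Called lower was 1 member, Oas3 (1.96%), beside 0.421% of all genes tested, and called higher were 0, beside 0.112%. Isg20 was the 1 member higher at an unadjusted p under 0.05 (1.96%, beside 4.85% of all genes), 18 were lower at that level (35.3%, beside 6.8%), and called higher were 0 also by DESeq2 and limma voom. For 6 members (11.8%), Ifit2, Oas1a, Oas1g, Oas3, Mx1 and Epsti1, all 5 old KO livers lay below all 5 old WT livers, beside 2.08% of all genes. For 0 members did they all lie above, beside 1.12% of all genes. DESeq2 called 5 members lower (Oas3, Oas1a, Mx1, Rsad2 and Lgals3bp), beside 1.5% of the genes to which it gave an adjusted p, and limma voom 0. Without any 1 of old WT 1, 4, 5 or 10 or of old KO 1, 4, 5 or 6, the edgeR count was 0. The share of all genes called lower was 0.0486% to 0.0971% without old WT 1 or 4 or old KO 4, 5 or 6. It was 0.215% to 0.487% without old WT 5 or 10 or old KO 1. Without old WT 7 the 1 member called was Lgals3bp, and without old KO 2 it was Mx1. Of all genes, 0.188% and 0.0695% were called lower in those fits. Young WT livers enter this comparison only through the shared estimate of spread. The count of members was 2 without young WT 2 and 0 without young WT 3 or 4, beside 0.626%, 0.389% and 0.216% of all genes.

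Old KO against young WT livers, which differ in both age and genotype, gave 24 members above 0 and 27 below, with a median of -0.03 against -0.01 over all genes. Called higher were 2 members, Isg20 and Irf1, beside 12% of all genes, and called lower were 3, Oas3, Adar and Lgals3bp, beside 11.3%. All 5 old KO livers lay below all 5 young WT livers for 2 members, Dhx58 and Lgals3bp, beside 6.56% of all genes, and above them for 0, beside 7.32%. The count called higher was 1 without young WT 2 or 3 or without old KO 1, 2, 4 or 5. Of all genes, 9.04% to 11.1% were called higher in those fits. The count of members called lower was 6 without old KO 2 and 1 without young WT 4 or old KO 4. Of all genes, 10.1%, 9.76% and 8.01% were called lower there.

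**Figure D1:**
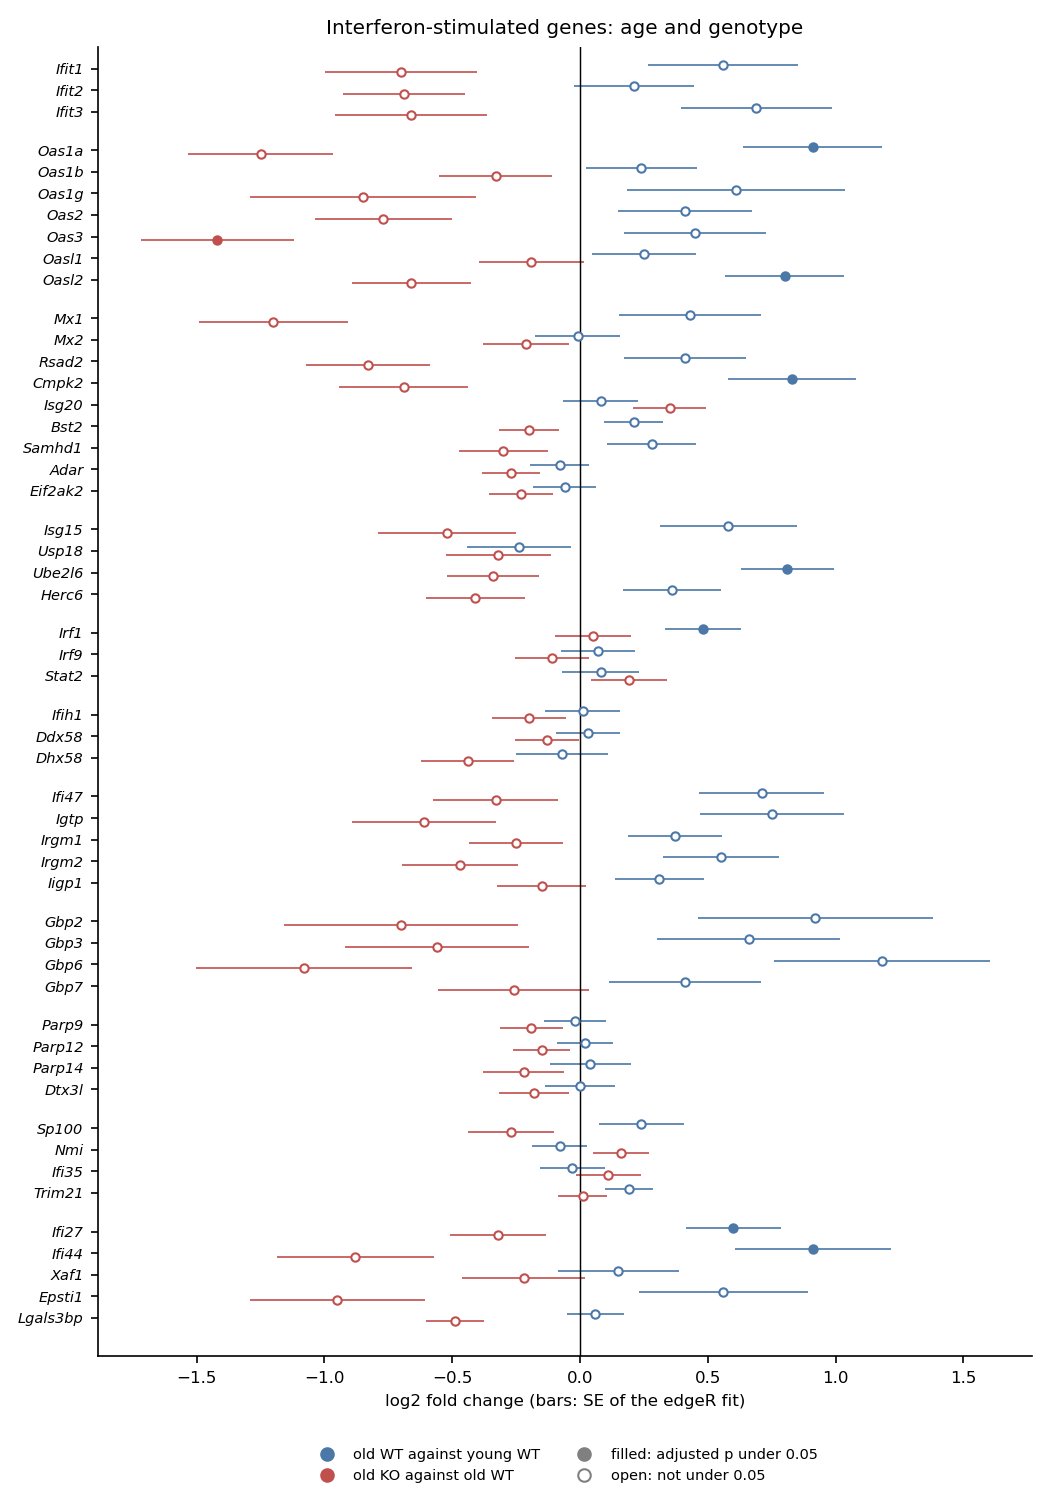
Log2 fold change (x axis) of each of the 51 members (y axis, grouped by role) for old WT against young WT (blue) and old KO against old WT (red), with bars for the SE of the edgeR fit and filled points for an adjusted p under 0.05. Most blue points lie right of 0 (42 of 51) and most red points left of 0 (45 of 51), and 7 blue points and 1 red point are filled.

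The oligoadenylate synthetase family is named for the short oligoadenylates, made by its active enzymes, that switch on RNase L. All 7 members lay below 0 in old KO against old WT livers, with a median log2 fold change of -0.77, and all 7 lay above 0 with age, with a median of 0.45. Oas3 (chr5:121203107-121227670, minus strand, NCBIM37), which prefers long double-stranded RNA, had 0.763, 0.641, 1.34, 1.81 and 1.85 CPM in young WT livers 1, 2, 3, 4 and 6. It had 1.94, 2.31, 1.49, 1.39 and 1.51 CPM in old WT livers 1, 4, 5, 7 and 10. It had 0.637, 0.654, 0.428, 0.797 and 0.696 CPM in old KO livers 1, 2, 4, 5 and 6. The highest old KO liver was thus well under the lowest old WT liver. Young WT 1 and 2 were at the old KO level, and young WT 4 and 6 were within the old WT range. Young WT 3, at 1.34 CPM, was just under the lowest old WT liver at 1.39 CPM. The log2 fold change between genotypes was -1.42 (SE 0.299, edgeR adjusted p = 0.0459), that with age 0.45 (SE 0.277, adjusted p = 0.275), and that of old KO against young WT livers -0.98 (SE 0.303, adjusted p = 0.0296). Leaving out any 1 of the 10 old livers gave -1.52 to -1.30 with adjusted p between 0.0513 and 0.132, and these values rest on 10 to 65 reads per old liver.

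Oas1a (chr5:121346265-121357536, minus strand) is a catalytically active member of the mouse Oas1 cluster, whose Oas1b copy carries a premature stop in C57BL/6 mice. Its levels were 0.974, 0.427, 1.24, 1.08 and 1.29 CPM in young WT livers 1, 2, 3, 4 and 6, and 2.28, 2.49, 2.09, 1.32 and 1.21 CPM in old WT livers 1, 4, 5, 7 and 10. Old KO livers 1, 2, 4, 5 and 6 had 1.01, 0.69, 0.814, 0.713 and 0.696 CPM. Old WT livers 1, 4 and 5 were above every other liver, and old WT 7 and 10 were at the level of the highest young WT livers. Oas1a rose with age by 0.91 on the log2 scale (SE 0.271, edgeR adjusted p = 0.0282), and its genotype value was -1.25 (SE 0.282, adjusted p = 0.0619). Leaving out single livers gave adjusted p of 0.0182 to 0.0733 for the age difference, which passed in 5 of 10 such fits.

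Oas1g (chr5:121326151-121337622, minus strand), the next copy, was the member with the fewest reads, down to 5 in young WT 2. It had 0.395, 0.153, 0.326, 0.814 and 1.51 CPM in young WT, 0.656, 1.35, 1.04, 0.99 and 0.662 in old WT, and 0.599, 0.436, 0.557, 0.629 and 0.371 in old KO livers, in order of replicate number. All old KO livers were below all old WT livers, but only by 0.629 against 0.656 CPM, and the young WT range spanned both groups. The old KO against old WT log2 fold change of -0.85 (SE 0.443) had an edgeR adjusted p of 0.484. Reads cannot separate this pair well, since 53% of the 50-base stretches of Oas1a transcripts and 50.6% of those of Oas1g occur in a transcript of another gene, most often of each other.

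Oasl2 (chr5:115346943-115362243, plus strand) encodes an oligoadenylate synthetase with ubiquitin-like domains. It had 2.69, 2.93, 4.89, 4.94 and 6.38 CPM in young WT, 8.68, 8.61, 8.59, 5.75 and 6.14 in old WT, and 5.43, 4.9, 5.95, 4.61 and 2.92 in old KO livers, in order of replicate number. Old WT 7 and 10 were again the lower old WT livers, and 4 of 5 old KO livers lay below all of the old WT livers. It rose with age by 0.80 (SE 0.233, edgeR adjusted p = 0.0261), a call that held in 5 of the 10 fits without 1 liver and under 6 of the 7 other settings. Its fold change between genotypes was -0.66 (SE 0.234, adjusted p = 0.255). Of the other members, Oas2 (-0.77), Oas1b (-0.33) and Oasl1 (-0.19) had edgeR adjusted p of 0.248 to 0.794 between genotypes.

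The IFIT proteins bind viral RNA and keep it from being translated. Ifit1, Ifit2 and Ifit3, neighbours on chromosome 19, had log2 fold changes of -0.70, -0.69 and -0.66 between old KO and old WT, each with an unadjusted p under 0.05 and edgeR adjusted p of 0.248 to 0.404. With age the values were 0.56, 0.21 and 0.69, with adjusted p of 0.114 to 0.554. Ifit2 (chr19:34625184-34650909, plus strand) had 2.87, 3.39, 6.23, 5.76 and 7.85 CPM in young WT, 6.62, 6.29, 6.68, 4.87 and 5.59 in old WT, and 4.61, 3.78, 3.9, 3.94 and 2.41 in old KO livers, in order of replicate number. Every old KO liver was below every old WT liver, although young WT 1 and 2 were as low as the old KO livers. Of the 50-base stretches of Ifit3 transcripts 51.5% occur in another gene, most often in I830012O16Rik.

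The other antiviral effectors act at several steps of infection. Mx1 (chr16:97668642-97684514, minus strand) encodes a nuclear dynamin-like GTPase that is disrupted by a deletion in C57BL/6 mice. It had 1.42, 1.56, 1.79, 1.54 and 2.93 CPM in young WT, 3.06, 2.13, 2.15, 2.53 and 2.43 in old WT, and 1.05, 2.07, 0.771, 0.797 and 0.603 in old KO livers, in order of replicate number. The groups of old livers met at old KO 2, with 2.07 CPM under the lowest old WT liver at 2.13, and the other 4 old KO livers were below every WT liver of either age. The log2 fold change was -1.20 (SE 0.292, edgeR adjusted p = 0.0798) between genotypes, and -1.60 with an adjusted p of 0.0135 without old KO 2. Its neighbour Mx2, the cytoplasmic form, differed by -0.21 (SE 0.168, adjusted p = 0.686).

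Rsad2 (chr12:27127618-27141317, minus strand) encodes viperin, which makes a chain-terminating nucleotide, and its neighbour Cmpk2 (chr12:27154069-27164700, plus strand) encodes the nucleotide kinase that supplies viperin. Rsad2 had 14.7, 13.4, 19.5, 17.6 and 26.6 CPM in young WT, 22.4, 24.9, 28.6, 18.9 and 26.8 in old WT, and 8.8, 22.7, 16.8, 9.94 and 10.1 in old KO livers, in order of replicate number. Old KO 2 was inside the old WT range and the other 4 old KO livers were below it. The log2 fold change between genotypes was -0.83 (SE 0.243, edgeR adjusted p = 0.156). Cmpk2 had 3.87, 4.58, 5.77, 5.33 and 10 CPM in young WT, 10.2, 8.82, 13.5, 6.45 and 13.1 in old WT, and 5.65, 8.32, 7.54, 4.53 and 6.22 in old KO livers. Young WT 6 was at the old WT level and old WT 7 near the other young WT livers. Cmpk2 rose with age by 0.83 (SE 0.251, edgeR adjusted p = 0.0318), a call that held in 3 of the 10 fits without 1 liver and under 5 of the 7 other settings. Its genotype value was -0.69 (SE 0.252, adjusted p = 0.269).

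Isg20, an exonuclease, and Adar, which edits double-stranded RNA, differed between old KO and young WT livers. Isg20 was higher by 0.43 (SE 0.144, edgeR adjusted p = 0.0411) and Adar lower, with -0.35 (SE 0.114, adjusted p = 0.0372). The Isg20 call held in 3 of the 10 fits without 1 liver and under 4 of the 7 other settings, and that of Adar in 5 and under 6. Isg20 was also the member with the largest positive value between genotypes, 0.35 (SE 0.144, adjusted p = 0.34), with 4 of 5 old KO livers above all old WT livers. The remaining effectors, Bst2, Samhd1 and the translation-blocking kinase gene Eif2ak2, had -0.20, -0.30 and -0.23 between genotypes, with adjusted p of 0.516 to 0.537.

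**Figure D2:**
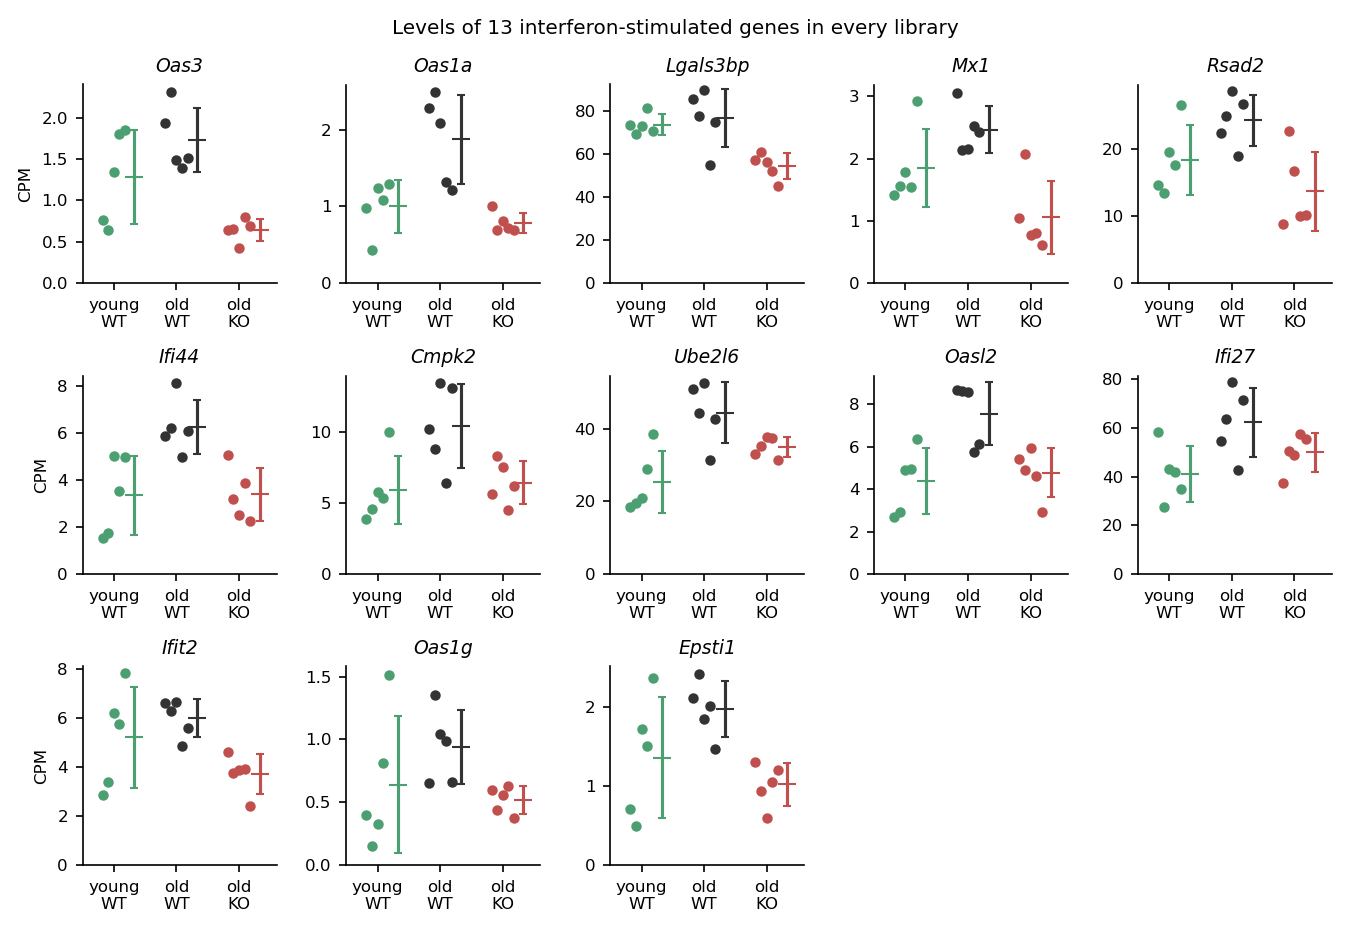
CPM (y axis, linear from 0) of 13 members in young WT (green), old WT (black) and old KO (red) livers, with 1 point per library and the mean and SD (n = 5) at its right. In Oas3, Oas1a, Mx1, Ifit2, Oas1g and Epsti1 every red point lies below every black point, and in the other 7 the red and black points overlap.

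The ISG15 system attaches the ubiquitin-like protein ISG15 to other proteins (the conjugating enzyme UBE2L6 and the ligase HERC6) and removes it again (USP18). Ube2l6 (chr2:84638985-84650492, plus strand) had 18.5, 19.7, 21, 29 and 38.7 CPM in young WT, 51.1, 44.3, 52.7, 31.4 and 42.8 in old WT, and 33, 35.3, 37.8, 37.6 and 31.4 in old KO livers, in order of replicate number. Young WT 6 and old WT 7 crossed between the WT groups, and the old KO livers lay in a narrow band inside the ranges of both. It rose with age by 0.81 (SE 0.182, edgeR adjusted p = 0.00659) and stayed called in each of the 10 fits without 1 liver and under each of the 7 other settings. Between genotypes it differed by -0.34 (SE 0.181, adjusted p = 0.486). Isg15, Herc6 and Usp18 had -0.52, -0.41 and -0.32 between genotypes, with adjusted p of 0.423 to 0.591. With age they had 0.58, 0.36 and -0.24, with adjusted p of 0.146 to 0.426, and Usp18, whose product also restrains the type I receptor, had the lowest age value of all members.

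The 3 transcription factor genes among the members had genotype values near 0. Irf1, which interferon-gamma induces, was at 23 ± 4.06 CPM in young WT, 32 ± 2.63 in old WT and 33.2 ± 8.57 in old KO livers (SD, n = 5). It rose with age by 0.48 (SE 0.149, edgeR adjusted p = 0.0358), and old KO exceeded young WT livers by 0.53 (SE 0.149, adjusted p = 0.0183). Between old KO and old WT livers its value was 0.05 (SE 0.148, adjusted p = 0.939), with a single high liver, old KO 1, at 47.6 CPM. The age call was lost in 7 of the 10 fits without 1 liver. Irf9 and Stat2, parts of the ISRE-binding complex (Irf9 overlaps Rnf31 on the same strand), had -0.11 and 0.19 between genotypes and 0.07 and 0.08 with age, with adjusted p of 0.671 to 0.833.

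The cytosolic RNA sensor genes Ifih1 (MDA5), Ddx58 (RIG-I) and Dhx58 (LGP2) had 0.01, 0.03 and -0.07 with age and -0.20, -0.13 and -0.44 between genotypes. Dhx58 was at 9.71 ± 0.802 CPM in young WT, 9.24 ± 1.84 in old WT and 6.81 ± 1.89 in old KO livers (SD, n = 5), with edgeR adjusted p of 0.348 against old WT and 0.0542 against young WT.

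The immunity-related GTPases and guanylate-binding proteins disrupt the vacuoles of intracellular pathogens and answer strongly to interferon-gamma. With age, all 9 members lay above 0, with medians of 0.55 for the 5 immunity-related GTPases and 0.79 for the 4 guanylate-binding proteins, and Gbp6 had the largest value of all members, 1.18 (SE 0.422, edgeR adjusted p = 0.0612). Called were 0 of 9 by edgeR, 4 of them at an unadjusted p under 0.05, 2 by DESeq2 and 3 by limma voom. Of all genes tested, edgeR called 9.92% higher and limma voom 10.1%, and 17.2% were higher at that unadjusted p. DESeq2 called 10.3% higher of the genes to which it gave an adjusted p. Young WT 6 was the highest young liver in all 9 members. Gbp2 had 3.29, 3.27, 5.93, 6.69 and 21.2 CPM in young WT, 10, 10.8, 22.1, 9.02 and 23.2 in old WT, and 11.8, 7.45, 10.8, 11.4 and 4.64 in old KO livers, in order of replicate number, and was chosen, after its values were seen, for the widest young WT spread relative to its mean. Young WT 6 was thus among the 3 highest of all 15 livers, with the other young livers below all old WT livers. Without young WT 6, 8 of the 9 were called higher with age, all but Gbp7, beside 12.1% of all genes.

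Between genotypes the 9 GTPase genes were all below 0, with medians of -0.33 and -0.63, and 0 were called by edgeR. At an unadjusted p under 0.05 were 2 of them, and DESeq2 and limma voom called 0. Of all genes tested, 6.8% were lower at that unadjusted p, and edgeR called 0.421% lower and limma voom 0.112%. DESeq2 called 1.5% lower of the genes to which it gave an adjusted p. Iigp1, the highest member per kilobase, was at 400 ± 101 CPM in old WT and 360 ± 12.8 CPM in old KO livers (SD, n = 5). Gbp6 is uncertain as a single gene, since 80% of the 50-base stretches of its transcripts occur in another gene, most often Gbp10.

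PARP9 and DTX3L form a complex that ADP-ribosylates and ubiquitinates proteins, and their gene models overlap on opposite strands, so that reads of the pair may be mixed if strand was not used in counting. Parp9, Parp12, Parp14 and Dtx3l had -0.02 to 0.04 with age and -0.22 to -0.15 between genotypes, and 0 of 4 passed at an unadjusted p under 0.05 in either. The regulatory members Nmi, Ifi35, Trim21 and Sp100, of which the first pair bind each other, had 0.16, 0.11, 0.01 and -0.27 between genotypes, with edgeR adjusted p of 0.571 to 0.988.

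The remaining induced genes include several of less settled function. Ifi44 (chr3:151393886-151412911, minus strand) had 1.53, 1.74, 5.02, 3.53 and 4.96 CPM in young WT, 5.87, 6.22, 8.11, 4.98 and 6.1 in old WT, and 5.05, 3.2, 2.53, 3.86 and 2.27 in old KO livers, in order of replicate number. Old KO 1 and old WT 7 met at about the same level, and young WT 1 and 2 were the lowest livers of all. Ifi44 rose with age by 0.91 (SE 0.305, edgeR adjusted p = 0.0468), a call that held in 3 of the 10 fits without 1 liver, and its genotype value was -0.88 (SE 0.307, adjusted p = 0.246).

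Ifi27 (listed as Ifi27l1 in the older annotation, chr12:104672421-104678449, plus strand) encodes a small membrane protein. It had 58.3, 27.7, 43.2, 41.8 and 34.7 CPM in young WT, 54.7, 63.6, 78.9, 42.8 and 71.4 in old WT, and 37.3, 50.4, 48.8, 57.5 and 55.5 in old KO livers, in order of replicate number. Old WT 7 lay at the level of young WT 3, and old KO livers overlapped both WT groups. It rose with age by 0.60 (SE 0.187, edgeR adjusted p = 0.0359), held in 3 of the 10 fits without 1 liver, and had a genotype value of -0.32 (SE 0.187, adjusted p = 0.537).

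Epsti1 (chr14:78304046-78397975, plus strand), first known from stroma around breast tumours, had 0.711, 0.489, 1.73, 1.51 and 2.37 CPM in young WT, 2.12, 2.42, 1.85, 2.02 and 1.47 in old WT, and 1.31, 0.944, 0.6, 1.05 and 1.21 in old KO livers, in order of replicate number. All old KO livers were below all old WT livers and within the young WT range. The genotype value was -0.95 (SE 0.342, edgeR adjusted p = 0.262).

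Lgals3bp (chr11:118254065-118263406, minus strand) encodes a secreted glycoprotein that binds galectin-3. It had 73.6, 69.4, 73.1, 81.5 and 70.5 CPM in young WT, 85.6, 77.5, 89.8, 54.9 and 74.8 in old WT, and 57, 60.8, 56.4, 52.2 and 45.3 in old KO livers, in order of replicate number. All 5 old KO livers were below all 5 young WT livers, and old WT 7 alone among the WT livers was as low. The log2 fold change was -0.44 (SE 0.113, edgeR adjusted p = 0.0116) against young WT, called in each of the 10 fits without 1 liver, and -0.49 (SE 0.113, adjusted p = 0.0659) against old WT. Without old WT 7 the difference from old WT was -0.60 with an adjusted p of 0.00987. Xaf1, which antagonises the apoptosis inhibitor XIAP, had -0.22 (SE 0.24, adjusted p = 0.8) between genotypes. Of the members, 9 are on chromosome 11 with Rps6kb1, and the closest, Xaf1 and Dhx58, lie 14.2 Mb from it.

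The genotype differences were larger among members with low levels. Split at the members' median of 12.9 CPM, the 26 lower members had a median log2 fold change of -0.66 between old KO and old WT livers, and the 25 higher members -0.23. All genes tested within the same CPM ranges had -0.04 and 0.02. All 6 members whose old groups did not overlap were among the lower 26, and of all genes tested 3.47% in the lower range and 0.864% in the higher range had old KO livers all below the old WT livers. With age the medians were 0.44 and 0.21, against 0.05 and -0.03 over all genes in those ranges.

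**Figure D3:**
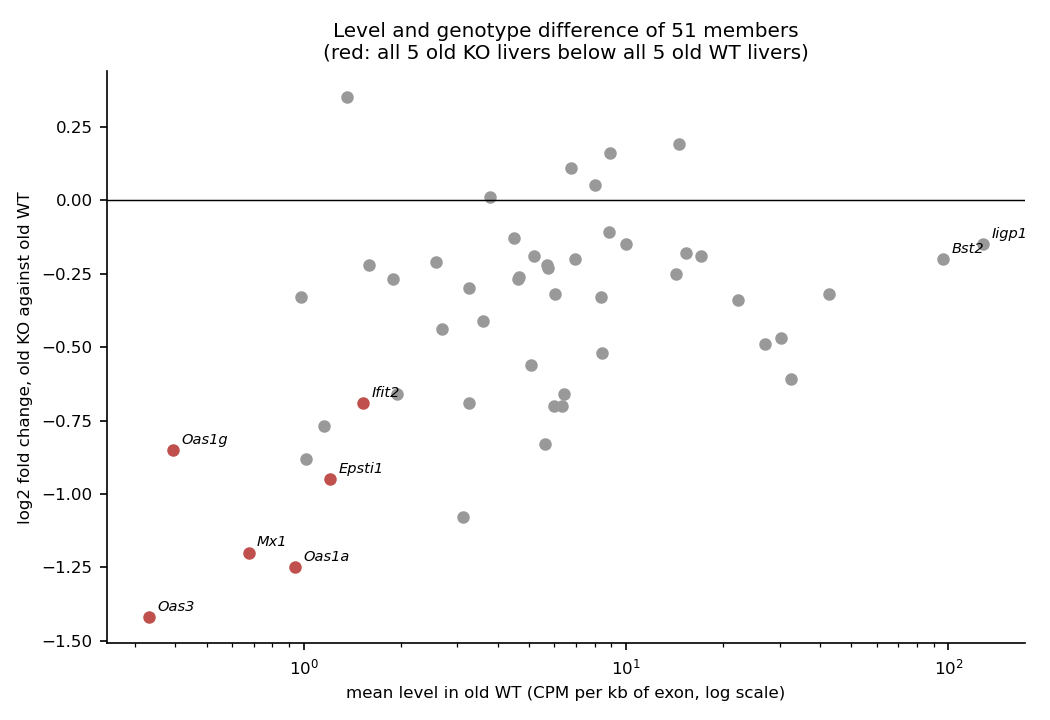
Log2 fold change between old KO and old WT livers (y axis) of each of the 51 members against its mean level in old WT livers (x axis, CPM per kb of exon, log scale), with members whose old groups do not overlap in red. The 6 red members lie at the low end of the levels, and Iigp1 and Bst2, the highest, have -0.15 and -0.20.

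Within each group the members tended to be high or low together in the same animals. Young WT 6 was the highest young liver for 34 of 51 members (66.7%), where it was the highest for 27.2% of all genes tested. Young WT 1 and 2 were the lowest young livers for 21 and 23 members. Old WT 7 was the lowest old WT liver for 40 members (78.4%), against 26.8% of all genes, and old WT 5 the highest for 26. Old KO 6 was the lowest old KO liver for 36 members (70.6%), against 25.7% of all genes, and old KO 1 the highest for 25. Taking each member's log2 CPM minus its mean over the 15 libraries, the median over members ran from -0.37 (young WT 2) to 0.38 (young WT 6) in young WT, from -0.13 (old WT 7) to 0.43 (old WT 5) in old WT and from -0.57 (old KO 6) to 0.05 (old KO 2) in old KO livers. The range within each group was therefore at least as wide as the median differences of 0.31 with age and -0.32 between genotypes. Young WT 6, old WT 7 and old KO 6 each had the smallest library of their group, with 21801754, 27063911 and 21984658 counts. Old WT 7 was the smallest by little, as old WT 4 had 27176274 counts. Young WT 6 ranked high for the members, and old WT 7 and old KO 6 ranked low. The part of depth in their ranks was not tested.

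**Figure D4:**
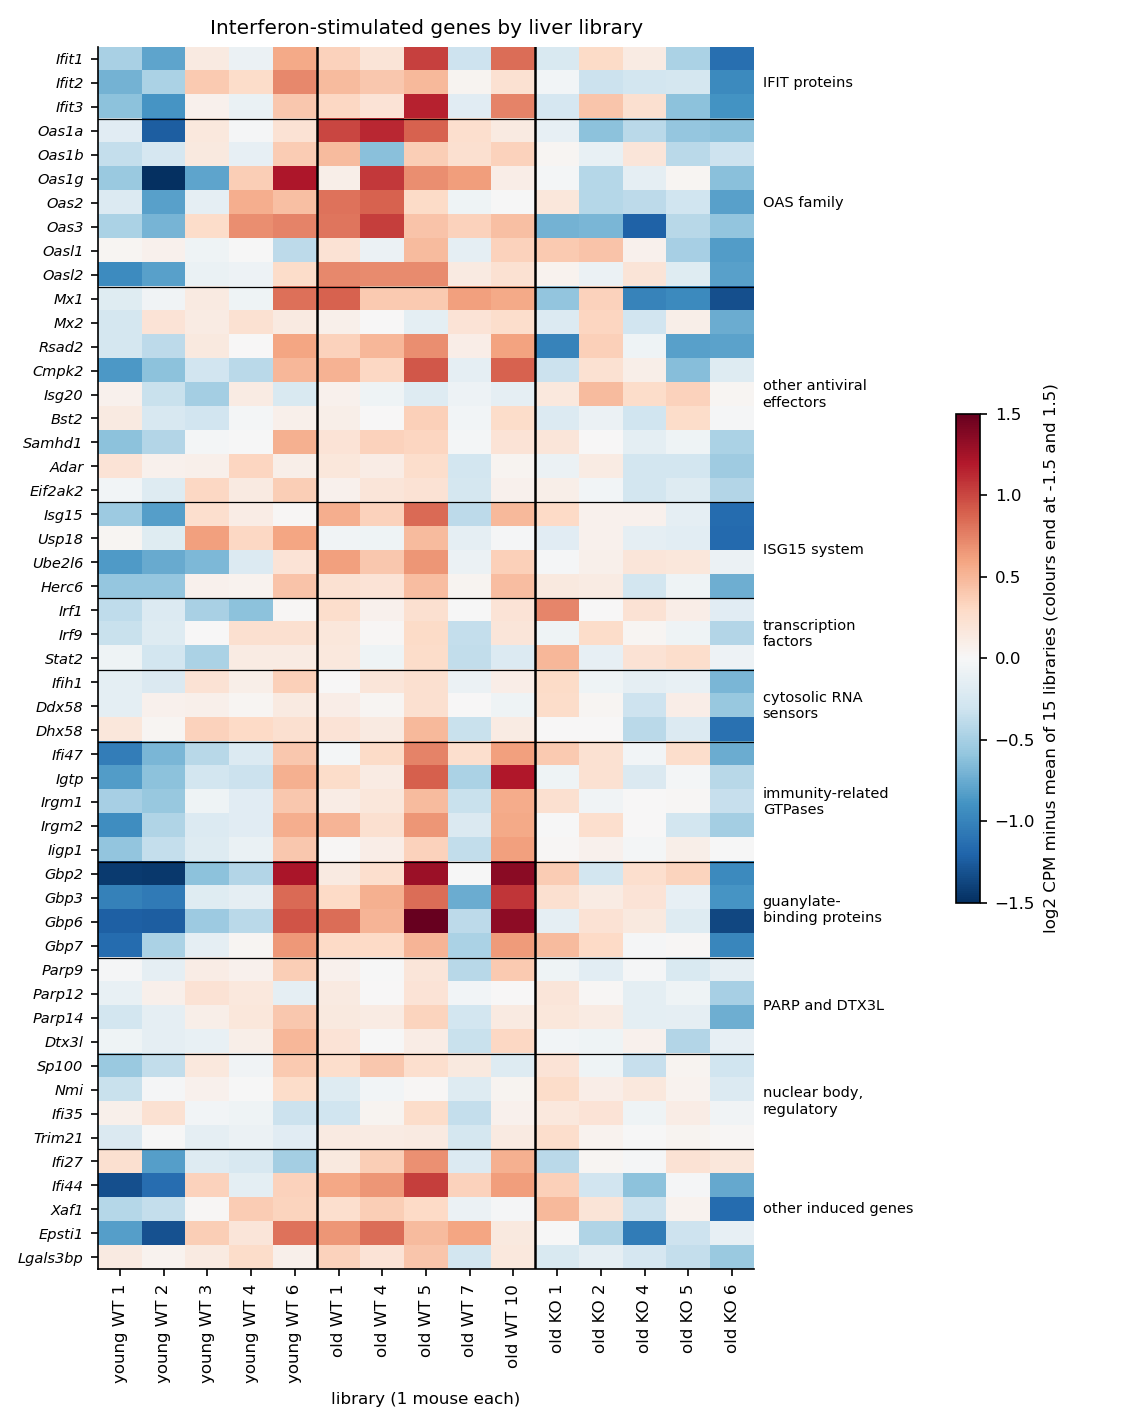
Log2 CPM of each of the 51 members (rows, by role) minus its mean over the 15 libraries, for each library (columns, 1 mouse each), with red above and blue below the mean. Young WT 1 and 2 and old KO 6 are mostly blue and young WT 6 and old WT 5 mostly red, with medians over members of -0.36, -0.37, -0.57, 0.38 and 0.43.

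Interferon genes, their receptors and the signalling genes below those act above the members. None of the 21 interferon ligand genes, type I, II and III, had enough reads to be tested. Of the 6 receptor genes 5 were tested, and 0 were called in any comparison by edgeR. At an unadjusted p under 0.05, 1 was higher with age and 2 were lower between genotypes. Of all genes tested, 17.2% and 6.8% were so. Ifngr2, a chain of the interferon-gamma receptor, was at 25.4 ± 2.61 CPM in old WT and 19.5 ± 2.89 in old KO livers (SD, n = 5; log2 fold change -0.38, SE 0.109, edgeR adjusted p = 0.146). Of 9 kinase and transcription factor genes, 2 rose with age (22.2%, beside 9.92% of all genes). Irf7, the factor that amplifies type I interferon production, was at 18 ± 4.83 CPM in young WT and 38.6 ± 8.78 in old WT livers (SD, n = 5), a rise of 1.10 (SE 0.181, adjusted p = 0.00121). Tyk2, the kinase on the type I receptor, rose by 0.52 (SE 0.0961, adjusted p = 0.00255).

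Between genotypes 0 of these 9 were called by edgeR, and Irf7 had -0.83 (SE 0.181, adjusted p = 0.053), with 21.7 ± 3.21 CPM in old KO livers (SD, n = 5). Against young WT livers 3 of the 9, Jak2, Tyk2 and Irf3, were called higher in old KO livers (33.3%, beside 12% of all genes). Of 9 negative regulators 8 were tested. With age 1 of the 8 was called higher by edgeR (12.5%, beside 9.92% of all genes). It was Ptpn6, the phosphatase SHP-1 of blood cells, with 0.26 (SE 0.0877, adjusted p = 0.0481). For old KO against young WT livers, 1 of the 8 was called lower (12.5%, beside 11.3% of all genes). That gene was Nlrc5, with -0.48 (SE 0.108, adjusted p = 0.00509). Both shares were thus close to those of all genes.

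Markers of liver macrophages moved in the same direction as the members between genotypes. All 11 Kupffer cell and macrophage markers were below 0 in old KO against old WT livers, with a median of -1.14. Called lower were 7 of 11, beside 0.421% of all genes tested. For 8 of 11, all 5 old KO livers lay below all 5 old WT livers, beside 2.08% of all genes. The summed level of these markers spanned 223 to 465 CPM among young WT livers, 277 to 653 among old WT livers and 159 to 236 among old KO livers. The sums of the old groups thus did not overlap, and none of the markers was at 0 in all libraries. Clec4f and Cd5l, which mark resident Kupffer cells, fell by 1.27 and 1.47 on the log2 scale (edgeR adjusted p = 0.0292 and 0.0247). Markers of T and NK cells (10 of 11 tested) had a median of -0.76, of B cells (4 of 4) -0.63 and of monocytes and neutrophils (6 of 7) -0.43. In each of these lists 0 were called by edgeR, and 2, 1 and 1 were lower at an unadjusted p under 0.05. Of all genes tested, 6.8% were lower at that level. Markers shared by all leukocytes (4 of 4) had -0.80, with 0 called and 3 lower at that level. Their sums were 97 to 135 CPM among old KO and 126 to 151 CPM among old WT livers. Most of these sums was Lcp1, at 89.4 ± 8.55 CPM in old KO and 93.8 ± 4.15 in old WT livers (SD, n = 5), with -0.07. Ptprc, Laptm5 and Coro1a had -0.78, -0.82 and -0.82. Markers of plasmacytoid dendritic cells (4 of 5) had a median of -0.29 and of endothelial cells (6 of 6) -0.10. Hepatocyte markers (6 of 6) had 0.28, with sums of 109760 to 143976 CPM among old KO and 89197 to 135162 among old WT livers, and 0 called. The part of these cells in the members' values was not tested.

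With age 0 of the 11 macrophage markers were called by edgeR, with 5 higher at an unadjusted p under 0.05 and a median of 0.43. Of all genes tested, 17.2% were higher at that level. Other lists did hold age calls, beside 9.92% of all genes called higher and 8.91% lower. Called higher were 3 of 10 T and NK cell markers (median 0.97), 2 of 6 monocyte and neutrophil markers (0.94), 1 of 4 B cell markers (0.71), 1 of 4 markers of all leukocytes (0.55) and 1 of 4 plasmacytoid dendritic cell markers (0.01). The plasmacytoid dendritic cell marker called was Tcf4 (0.33, SE 0.0957, edgeR adjusted p = 0.0255), at 18.4 ± 1.74 CPM in young WT livers (SD, n = 5). Siglech, Ccr9 and Ly6d from that list had -0.04, -0.16 and 0.06. Called lower were 2 of 6 hepatocyte markers (median -0.31) and 2 of 6 endothelial markers (-0.42). The part of these cells in the members' age values was not tested. Old WT 5, with the highest members' median of the old WT livers (0.43), had their lowest macrophage marker sum (277 CPM). Old WT 7, with the lowest members' median (-0.13), had 408 CPM. In the young WT group, the livers with the lowest members' medians, 1 and 2, had sums of 257 and 223 CPM. Young WT livers 3, 4 and 6 had 465, 403 and 463 CPM. In the old KO group, liver 6 had both the lowest sum (159 CPM) and the lowest members' median (-0.57). Old KO 1 and 2 had the highest sums (236 and 228 CPM) and the highest medians (0.03 and 0.05). Old KO 4 and 5 had 177 and 217 CPM, with medians of -0.06 and -0.11. Young WT 6 also had the lowest hepatocyte marker sum of all livers, 81674 CPM, and old WT 7 the highest of the WT livers, 135162 CPM. Most of these sums was Alb, at 89856 ± 16980 CPM in young WT and 85111 ± 16833 in old WT livers (SD, n = 5).

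**Figure D5:**
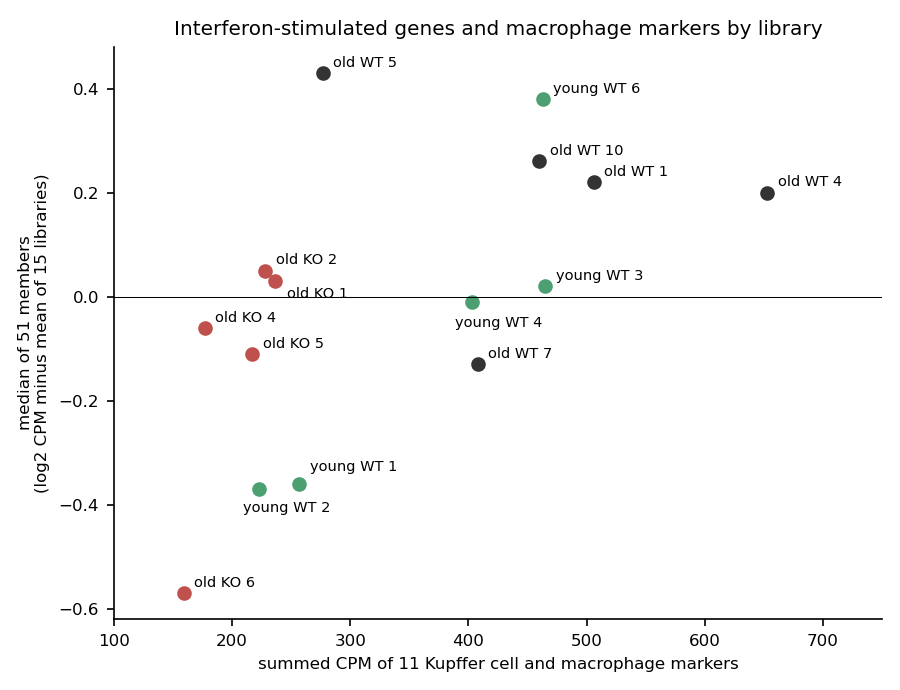
Median over the 51 members of log2 CPM minus the mean of 15 libraries (y axis) against the summed CPM of 11 Kupffer cell and macrophage markers (x axis, starting at 100), with 1 point per library in young WT (green), old WT (black) and old KO (red). The old KO livers lie at the left, with 159 to 236 CPM, and old KO 6 has the lowest sum and median of its group. Old WT 5 and old WT 7 have the highest and lowest median of their group with 277 and 408 CPM.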

How the data were processed

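Per the study's methods and labels, the authors extracted RNA from frozen livers with Trizol, made stranded poly(A) libraries, sequenced them single-end with 50-base reads, mapped them to mm9 with TopHat (TopHat2 2.0.11 in the submitters' processing notes) and used HTSeq for counting. What they deposited is a table of raw counts, not normalized and not pooled. The annotation and strand setting of the counting are not given in the sources used here, so counts of overlapping or near-identical genes are uncertain. Positions came from GENCODE M1 on NCBIM37, the build of mm9. Of the members 50 matched by symbol and 1, Ifi27, by its current RefSeq symbol.

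Counts were scaled by TMM and tested with edgeR 4.0.16 under R 4.3.3 (filterByExpr on group, glmQLFit and glmQLFTest over all 15 libraries, group as the only term, common biological coefficient of variation 0.189), and p-values were adjusted by Benjamini-Hochberg with a threshold of 0.05. Log2 CPM used a prior count of 2. The fit was checked on simulated counts. Alternatives were RLE and upper quartile scaling, no filter on low counts, DESeq2 1.42.0 (the tool the study names, without a design formula), limma 3.58.1 voom, only the 10 libraries compared, the replicate number as a block, and each library left out in turn. Values in every library are given for members called between genotypes or among the 6 with the smallest p there, the 6 called members with the largest age differences in each direction, and members whose old groups did not overlap. Libraries with the same replicate number correlated at -0.153 to 0.077 over all genes tested in their deviations from group means. This gave no sign that the numbers pair them, but a pairing that touches few genes would not show in it. Each library was 1 mouse, and the labels give no batch. Precision for members with few reads is limited by counting error, and the lowest count of a member was 5. The members and the other gene lists were chosen with earlier results of these data known. Promoter windows came from RefSeq (GRCm38.p6) and were matched by symbol, and 50-base stretches were compared among GENCODE M1 protein-coding transcripts.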

Additional observations from a re-analysis of the deposited data

Results flagged for a closer look

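Of 39 sets of 5 livers examined (13 members in 3 groups), 1 held a liver far from the other 4. Mx1 in young WT livers was 2.93 CPM in young WT 6, where the next liver had 1.79 CPM and the lowest 1.42 CPM. The gap was 0.754 of the whole range, above Dixon's critical value of 0.71 for 5 samples. Chance flags about 1 in 20 such groups.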

How the results depend on the processing

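Of 2601 values of single members under an alternative, 2477 kept their direction and side of the threshold, 86 lost their call, 38 gained one and 0 called values turned direction. The number called higher with age, 7, became 2 with a replicate block and 3 in only the 10 libraries compared. It became 1 to 16 with 1 of the 10 livers compared left out, as in the ranges that follow. Of all genes, 9.92% were called higher in the main fit, 3.42% with the block and 7.73% in the 10 libraries. With 1 liver left out, 6.25% to 12.1% of all genes were. The number called lower between genotypes, 1, became 5 with DESeq2, 0 with limma voom, 0 with a replicate block and 2 in only the 10 libraries compared, and 0 to 1 with 1 liver left out. It was 2 without young WT 2, which enters that comparison only through the shared estimate of spread. Of all genes, 0.421% were called lower in the main fit. The share was 1.5% with DESeq2, 0.112% with limma voom, 0.0281% with the block and 0.57% in the 10 libraries. With 1 old liver left out it was 0.0486% to 0.487%, and without young WT 2 it was 0.626%. Between old KO and young WT livers the number called higher, 2, became 1 without a filter on low counts, 0 with a replicate block and 1 in only the 10 libraries compared, and 1 to 2 with 1 liver left out. The number called lower, 3, became 6 with DESeq2 and 1 to 6 with 1 liver left out. Of all genes, 12% were called higher in the main fit of that comparison. The share was 5.83% without a filter, 8.53% with the block and 10.6% in the 10 libraries. It was 9.02% to 13.8% with 1 liver left out. Called lower were 11.3% in the main fit, 10.6% with DESeq2 and 8.01% to 12.7% with 1 liver left out. The members' median stayed at 0.25 to 0.48 with age and at -0.37 to -0.22 between genotypes, and ran from -0.13 to 0.07 between old KO and young WT livers, with 1 liver left out. The correlations of libraries with the same number gave no sign that the replicate numbers pair them. Numbers 3 (young WT), 7 and 10 (old WT) each occur in only 1 library, so the replicate block leaves those livers out of the contrasts. The part of this in the counts with the block, and the cause of the other changes, were not tested. The 3 scalings and the other settings moved the median of all genes to between -0.02 and 0.02. With 5 mice per group and few reads for the lowest members, small differences could not be resolved.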

Other observations

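Gene models of 11 members overlap another annotated gene, in 9 of them on the opposite strand. Apart from the pair Parp9 and Dtx3l (34533 and 36212 counts over all libraries), the largest overlapping gene was Rnf31, with 6357 counts beside 19621 for Irf9. Of the 51 members, 29 had no 50-base stretch in common with another protein-coding gene and 8 had more than 5% of theirs in common. Ifi27l2a, which is no member but carries Ifi27 as an older name, was at 0.482 ± 0.2 CPM in young WT, 0.69 ± 0.24 in old WT and 0.328 ± 0.108 in old KO livers (SD, n = 5), and its log2 fold change between old KO and old WT was -1.08 (SE 0.349, edgeR adjusted p = 0.203).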
